A study of Rattus norvegicus with 4 samples.

Results

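The cytoplasmic ribosomal protein genes encode the proteins that, together with ribosomal RNA, form the large and the small subunit of the ribosome. They were taken by gene symbol as Rpl or Rps followed by a number and at most 1 of the suffixes a, l or x, plus Rplp0, Rplp1, Rplp2 and Rpsa, and without the Rps6k kinases. Of 79 such symbols in the rat annotation, 63 had a named probe on the array, 36 of the large and 27 of the small subunit, among 8927 genes with a named probe in all. The other 16 symbols matched no probe through the annotation and were not analysed here. Expression had been measured in cells of the Fisher 344 rat on 4 Agilent 1-colour (Cy3) arrays, 1 array per group. The groups were neurons derived from neural stem cells of the olfactory bulb (OB neurons), neurons derived from neural stem cells of the adult hippocampus (HPC neurons), the olfactory bulb stem cells themselves (OB stem cells) and the hippocampal stem cells themselves (HPC stem cells). Each array received total RNA pooled from 3 experiments, which leaves no measure of the spread between experiments. Genotype, sex, age and the culture conditions that gave neurons are not given in the sources used here.

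Each ribosome holds 1 copy of nearly all of these proteins, so a cell that makes ribosomes needs them in matched amounts, and their messages are among the most abundant in dividing cells. Most of these messages begin with a run of pyrimidine bases, the 5′ terminal oligopyrimidine (TOP) motif, through which the kinase mTORC1 and the RNA-binding protein Larp1 set how strongly they are translated. Transcription of ribosomal RNA by RNA polymerase I, transcription of ribosome assembly factors and the activity of Myc rise together with growth in many cell types, and ribosome production is known to fall when dividing cells leave the cell cycle. An array of total RNA measures the amount of each message and not its translation.

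The 4 arrays differed in overall signal. The 75th percentile of the processed intensity was 725 in OB neurons, 805 in HPC neurons, 816 in OB stem cells and 487 in HPC stem cells. Both neuron arrays lay on 1 slide and both stem cell arrays on the other, so an effect of slide and one of cell state cannot be told apart; olfactory bulb and hippocampus were compared within a slide. Summed marker levels went against the labels of the neurons, whose names are kept below as the labels give them. The level summed over 19 neuron marker genes, in units of the array's 75th percentile, was 10.03 in OB neurons and 18.5 in HPC neurons, against 124 in OB stem cells and 170 in HPC stem cells, and 11 of 18 neuron markers compared were lower by 2-fold or more in OB neurons and 8 of 17 in HPC neurons. Syt1 and Gad1 were well above background in both stem cell groups and in neither neuron group, Neurod1 in OB stem cells alone and Slc17a7 in no group. Other neuron markers went the opposite way, 3 being higher by 2-fold or more in OB neurons and 2 in HPC neurons. Of all genes compared, 20% were lower by 2-fold or more in OB neurons and 26.9% in HPC neurons. Higher by that much were 26.8% and 21.8%. Stmn2, a tubulin-binding protein of neurons, was not well above background in either stem cell group and was higher by at least 4.97 log2 units in OB neurons and 5.83 in HPC neurons, and Snap25, of the synaptic fusion complex, was higher by 3.08 and 3.97. The sum over 12 stromal markers was 1339 in OB neurons and 1182 in HPC neurons, against 1.37 in OB stem cells and 1.56 in HPC stem cells, where Col3a1, Dcn, Lum and Pdgfrb were not well above background. The sum over 11 astrocyte markers was 151 in OB neurons and 146 in HPC neurons, against 33.2 in OB stem cells and 43.3 in HPC stem cells, and the sum over 16 cell cycle genes was 152 in OB neurons and 208 in HPC neurons, against 443 in OB stem cells and 551 in HPC stem cells. Sums over 11 neural stem markers were 290 in OB neurons, 229 in HPC neurons, 312 in OB stem cells and 392 in HPC stem cells; over 9 oligodendrocyte markers they were 32.7, 32.8, 108 and 179 in the same 4 groups, and over 11 microglia markers 9.57, 8.09, 1.16 and 1.25. The part of these cell type differences in the results below was not tested, and in pooled RNA fewer cells of a type and less RNA per cell cannot be told apart.

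All 63 ribosomal protein genes were well above background on all 4 arrays, and no spot was saturated. Levels are given as log2 of the processed intensity minus the log2 of the array's 75th percentile, from the brightest probe of each gene. The median level over the 63 genes was 7.21 in OB neurons, 7.54 in HPC neurons, 7.87 in OB stem cells and 8.47 in HPC stem cells. For 61 of the 63 genes the levels stood in that same order, lowest in OB neurons and highest in HPC stem cells, an order held by 27.2% of the 5495 genes that passed the background filter on every array. The exceptions were Rps20 and Rps27a, whose levels in HPC neurons lay just above those in OB stem cells. The 92 probes of these genes are 0.226% of the probes, yet they held 8.10% of the summed non-control signal in OB neurons, 9.30% in HPC neurons, 9.86% in OB stem cells and 10.9% in HPC stem cells. Each share divides by the summed signal of its array, which is itself a scaling by a constant and moves with the signal of all other probes. On that scale the share was lower in the neurons of either source than in its stem cells. Before any scaling the median intensity of the 63 genes was 107591 in OB neurons, 150009 in HPC neurons, 191421 in OB stem cells and 172017 in HPC stem cells.

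**Figure D1:**
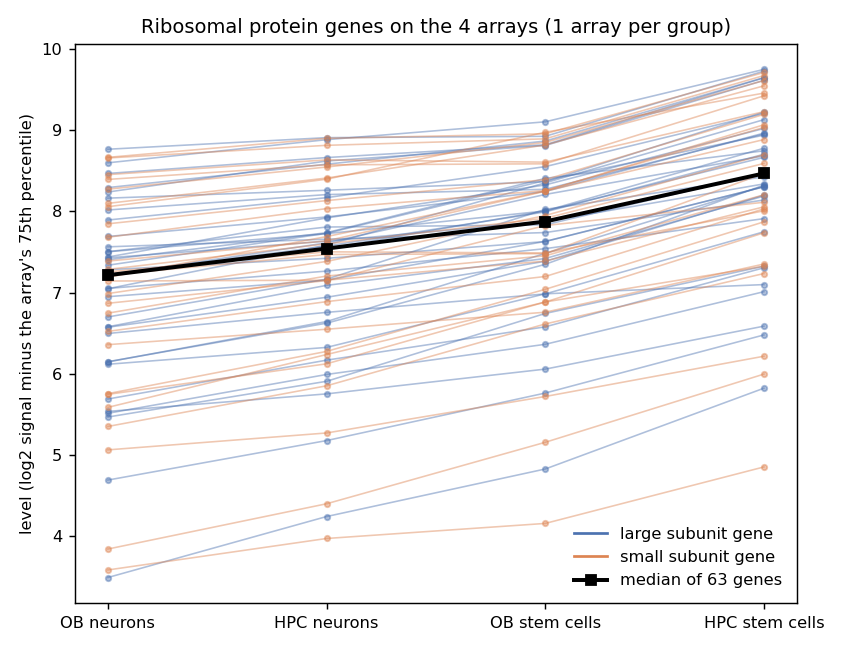
Level of each of the 63 ribosomal protein genes (thin lines, blue for the large and orange for the small subunit) on the 4 arrays, in log2 units relative to the array's 75th percentile, with the median of the 63 genes as black squares. The lines run nearly in parallel, and the median is 7.21 in OB neurons, 7.54 in HPC neurons, 7.87 in OB stem cells and 8.47 in HPC stem cells.

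The first question was how neurons differed from the stem cells they came from. In olfactory bulb cells the median difference of the 63 genes, neurons minus stem cells, was -0.68 log2 units, a level 1.60-fold lower in OB neurons, and in hippocampal cells it was -1.03, a level 2.04-fold lower in HPC neurons. The median over all genes compared was 0.07 in olfactory bulb cells and -0.32 in hippocampal cells, and relative to it the ribosomal protein genes stood at -0.75 in olfactory bulb cells and -0.71 in hippocampal cells. Over the genes well above background on all 4 arrays, as the 63 were, the medians were -0.16 and -0.49. Relative to those the ribosomal protein genes stood at -0.52 and -0.54, a smaller gap. All 63 genes were lower in OB neurons than in OB stem cells, as were 46.4% of all 7022 genes compared, and all 63 were lower in HPC neurons than in HPC stem cells, as were 58.8% of 6657 genes. Of 175 other genes with a mean level of 6 or more, 73.7% were lower by any amount in OB neurons and 92.6% in HPC neurons. Quantile normalization changed the counts of the 63 genes to 46 lower and 16 higher in OB neurons. In HPC neurons it changed them to 41 lower and 22 higher. Without scaling between arrays 57 of the 63 were lower and 6 higher in HPC neurons. Differences of 2-fold or more counted as called. In olfactory bulb cells 15 of the 63 genes were lower by that much in neurons, a share of 23.8% that was near the 20% of all genes, and 0 were higher against 26.8%. In hippocampal cells 34 of the 63 were lower by 2-fold or more in neurons, a share of 54.0% against 26.9% of all genes, and 0 were higher against 21.8%. Of 175 other genes with a mean level of 6 or more, 26.9% were lower by that much in OB neurons and 49.7% in HPC neurons. Higher by that much were 6.86% and 2.29% of them. The 57 ribosomal protein genes of that level had 21.1% and 54.4% lower, shares near those of the other bright genes. The counts of the 63 genes moved with the scaling: those lower by 2-fold or more in OB neurons and HPC neurons were 47 and 61 with each array scaled to its median, where 33.7% and 42.9% of all genes were. They were 63 and 7 relative to the spike-in controls, against 47.1% and 14.7% of all genes, and 2 and 0 after quantile normalization, against 20.4% and 23.2%. With 1 array per group neither difference could be tested on its own.

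The spread of the ribosomal protein genes was narrow beside that of all genes. The SD over the 63 differences was 0.36 log2 units in olfactory bulb cells and 0.28 in hippocampal cells, against 2.29 and 2.11 over all genes compared. The range was -1.34 to -0.15 in olfactory bulb cells and -1.70 to -0.48 in hippocampal cells. The 2 subunits had similar medians. The 36 large subunit genes had a median difference of -0.72 in olfactory bulb cells and -1.03 in hippocampal cells, and the 27 small subunit genes -0.66 and -1.0. Among 175 other genes with a mean level of 6 or more, the medians were -0.54 in olfactory bulb cells and -0.99 in hippocampal cells with SDs of 0.90 and 0.79, against -0.68 and -1.03 with SDs of 0.36 and 0.27 for the 57 ribosomal protein genes of that level. In hippocampal cells the median of the ribosomal protein genes was thus close to that of the other bright genes, and the spread was narrower in both sources.

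Across the 63 genes the difference in olfactory bulb cells and that in hippocampal cells had a Pearson correlation of 0.859 and a Spearman correlation of 0.865. The points are genes measured with the same probes on the same pair of slides, so this is a description and not a test. The 15 genes that were 2-fold or more lower in OB neurons were also 2-fold or more lower in HPC neurons, 19 genes passed 2-fold in HPC neurons only, and 29 passed in neither. Of all genes compared in both sources, 16.8% were lower by 2-fold or more in both and 44.1% were lower by any amount in both.

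**Figure D2:**
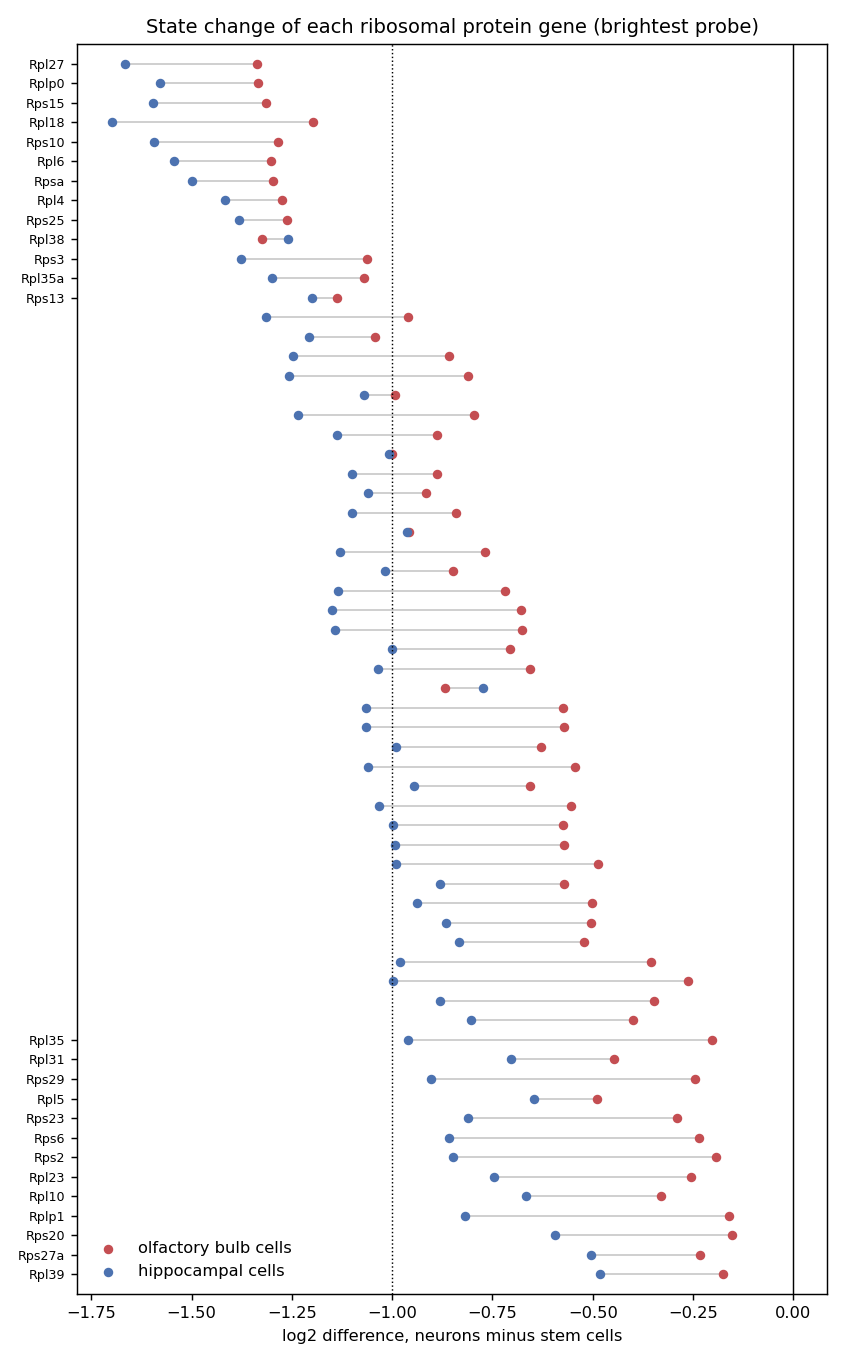
Difference of each ribosomal protein gene in log2 units, neurons minus stem cells, in olfactory bulb cells (red) and hippocampal cells (blue), from the brightest probe; the dotted line marks a 2-fold lower level, and the 13 genes at each end of the order by mean difference are labelled. All points lie below 0, from -1.34 to -0.15 in olfactory bulb cells and from -1.70 to -0.48 in hippocampal cells, and under quantile normalization 16 and 22 of the 63 genes would lie above 0.

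Among the large subunit genes with the largest differences was Rpl27, a structural protein of the subunit. Its level was 6.15 in OB neurons, 6.64 in HPC neurons, 7.48 in OB stem cells and 8.31 in HPC stem cells. Both neuron values lay below both stem cell values, with differences of -1.34 in olfactory bulb cells and -1.67 in hippocampal cells, neurons minus stem cells. Rplp0 encodes the base of the stalk, the arm of the large subunit that recruits the translation factors that use GTP. It had levels of 3.49 in OB neurons, 4.24 in HPC neurons, 4.83 in OB stem cells and 5.82 in HPC stem cells, which are differences of -1.34 in olfactory bulb cells and -1.58 in hippocampal cells. Rplp1, which binds to this base as part of the stalk, differed far less. It was read by a far brighter probe, with a mean intensity of 377296 against 18532 for Rplp0. The levels of Rplp1 were 8.76 in OB neurons, 8.91 in HPC neurons, 8.92 in OB stem cells and 9.72 in HPC stem cells, with HPC stem cells highest under this scaling. Before scaling the intensity of Rplp1 was 315094 in OB neurons, 386363 in HPC neurons, 396021 in OB stem cells and 411707 in HPC stem cells, and OB neurons were the group farthest from the others. The scaled Rplp1 differences were -0.16 in olfactory bulb cells and -0.82 in hippocampal cells. The probe of Rplp1 was printed 10 times, and its spots had an SD of 0.113 in OB neurons, 0.0984 in HPC neurons, 0.119 in OB stem cells and 0.160 in HPC stem cells, which is the noise of spots and not of cultures.

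Rpl18 had the largest difference of all 63 genes in hippocampal cells. Its level was 6.15 in OB neurons, 6.62 in HPC neurons, 7.35 in OB stem cells and 8.32 in HPC stem cells, with differences of -1.20 in olfactory bulb cells and -1.70 in hippocampal cells. Rpl6 had levels of 7.05 in OB neurons, 7.58 in HPC neurons, 8.35 in OB stem cells and 9.13 in HPC stem cells, with differences of -1.30 and -1.54. Rpl4, whose long loop reaches into the exit tunnel for the growing protein, had levels of 5.47 in OB neurons, 5.91 in HPC neurons, 6.74 in OB stem cells and 7.32 in HPC stem cells. That is a difference of -1.27 in olfactory bulb cells and -1.42 in hippocampal cells. Rpl38, known in mouse embryos for the translation of Hox messages, had levels of 6.70 in OB neurons, 7.16 in HPC neurons, 8.02 in OB stem cells and 8.42 in HPC stem cells. It was 1 of only 2 genes with a larger difference in olfactory bulb cells, -1.32 against -1.26 in hippocampal cells. Rpl35a, mutated in some human patients with Diamond-Blackfan anaemia, had differences of -1.07 in olfactory bulb cells and -1.30 in hippocampal cells, and Rpl29 -1.0 and -1.01.

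In the small subunit Rps15, a protein of the head of the subunit, had levels of 3.84 in OB neurons, 4.40 in HPC neurons, 5.16 in OB stem cells and 6.0 in HPC stem cells. The differences were -1.31 in olfactory bulb cells and -1.60 in hippocampal cells. Rps10, which is ubiquitinated when ribosomes stall in human cells, had levels of 5.76 in OB neurons, 6.28 in HPC neurons, 7.04 in OB stem cells and 7.87 in HPC stem cells, with differences of -1.28 and -1.59. Rpsa, also known as the laminin receptor precursor, had levels of 5.59 in OB neurons, 6.24 in HPC neurons, 6.88 in OB stem cells and 7.73 in HPC stem cells, with differences of -1.30 and -1.50. In each of these 3 genes the neurons of either source lay below the stem cells of both. Rps25, needed in human cells for initiation at several viral entry sites, had differences of -1.26 in olfactory bulb cells and -1.38 in hippocampal cells. Rps3, at the entry of the messenger RNA channel, had differences of -1.06 and -1.38, and Rps13 of -1.14 and -1.20.

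At the other end stood Rpl39, a small protein of the exit tunnel wall, with levels of 7.56 in OB neurons, 7.66 in HPC neurons, 7.74 in OB stem cells and 8.14 in HPC stem cells. The differences were -0.18 in olfactory bulb cells and -0.48 in hippocampal cells under the 75th percentile scaling. Before scaling the intensity of Rpl39 was 137062 in OB neurons, 162458 in HPC neurons, 174209 in OB stem cells and 137122 in HPC stem cells, so the direction in hippocampal cells turned. Rps27a, made as a fusion with ubiquitin, had levels of 7.25 in OB neurons, 7.50 in HPC neurons, 7.49 in OB stem cells and 8.01 in HPC stem cells, with differences of -0.23 and -0.50. Rps20, of the head of the small subunit, had levels of 8.45 in OB neurons, 8.63 in HPC neurons, 8.60 in OB stem cells and 9.23 in HPC stem cells, with differences of -0.15 and -0.59. Rps2, at the messenger RNA entry, had differences of -0.19 in olfactory bulb cells and -0.85 in hippocampal cells, and Rpl35, beside the tunnel exit, -0.20 and -0.96. Under the 75th percentile scaling HPC stem cells had the highest level of each of these 5 genes. Without scaling Rpl39, Rps27a and Rps20, with Rpl5 and Rpl10, were among the 6 genes that were higher in HPC neurons than in HPC stem cells.

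Other members are known for roles beyond the ribosome or in disease. Rps6, the substrate of the S6 kinases downstream of mTORC1, had levels of 8.66 in OB neurons, 8.81 in HPC neurons, 8.89 in OB stem cells and 9.67 in HPC stem cells, with differences of -0.24 in olfactory bulb cells and -0.86 in hippocampal cells. Rpl5 and Rpl11, which as part of a particle with ribosomal RNA bind the ubiquitin ligase Mdm2 when assembly fails, had differences of -0.49 and -0.65 for Rpl5 and of -0.50 and -0.94 for Rpl11. Rps19, the gene most often mutated in human Diamond-Blackfan anaemia, had -0.71 and -1.0, and Rps24, another gene of that disease, had -0.96 in both sources. Members often used as constant references in quantitative PCR were Rplp0, given above, Rps18 with -0.72 in olfactory bulb cells and -1.13 in hippocampal cells, Rpl19 with -0.77 and -1.13, Rpl13a with -0.55 and -1.03, and Rpl32 with -0.57 and -1.07. All 5 of these had lower levels in the neurons of both sources than in their stem cells under the 75th percentile, median, spike-in and quantile scalings and without scaling.

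The start sites of the genes at both ends were read from RefSeq promoters of the rat assembly GRCr8 to show whether those that differed most and least between neurons and stem cells begin alike. An entry was found for 51 of the 63 genes. The windows below span 20 bases before the annotated start and 10 bases from it, for the 4 genes with an entry that had the largest and the 4 that had the smallest mean difference over both sources. Capitals mark a run of C and T read from a C within 5 bases of the annotated start and at least 5 bases long. That is the form of a TOP motif. The base before that C was not considered, and it is a T in Rpl10, Rplp1, Rps27a and Rpl39. Rplp0 lies at chr12:46718381-46718410 (minus strand), Rps15 at chr7:10068106-10068135 (minus), Rpl18 at chr1:105325250-105325279 (plus) and Rps10 at chr20:5700735-5700764 (minus). Rpl10, a protein added late in assembly, lies at chrX:157205830-157205859 (plus), Rplp1 at chr8:71290863-71290892 (minus), Rps27a at chr14:107488932-107488961 (minus) and Rpl39 at chrX:121195887-121195916 (minus).
Rplp0: ctggtgaccgcaccgcaCTTCTCTCgccag
Rps15: gcagccgctgacaccgCTTCCTTTTCCCag
Rpl18: gtctttctggacctggtctagcaggaggcg
Rps10: gctgcgccgcgcacgCCCCTTCCTTTCCag
Rpl10: atgcgcaggcgtgggagcgtCTCTTTTCCT
Rplp1: tgcgcgcaggcgcatgtgatCCTTTCCTCa
Rps27a: ggccgcctaaagggcggttCCTTCgacccg
Rpl39: cagcgtcttctaatcgcgttCTTCCggcct
Of these 8 windows that of Rpl18 alone holds no such run.

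Over the family, C followed by at least 4 further C or T stood exactly at the annotated start in 21 of the 51 genes, or 41.2%, against 2.63% of 27457 rat promoters of the same length, and within 5 bases of the start in 32 of 51, or 62.7%, against 17.0%. The size of the difference between neurons and stem cells did not separate the genes with and without the run at the start. The 21 genes with it had medians of -0.66 in olfactory bulb cells and -1.0 in hippocampal cells, with ranges of -1.34 to -0.16 and -1.60 to -0.48, and the 30 genes without it had medians of -0.80 and -1.03, with ranges of -1.32 to -0.19 and -1.70 to -0.50. Over the 300 bases of a promoter and on either strand, TATAAA was found in 7.84% of the 51 genes against 14.3% of all promoters, CCGGAAGT, the letters of an Ets family site, in 9.80% against 4.01%, and AAGATGG, letters of a Yy1 site, in 13.7% against 7.30%. A match to letters is not shown to be a site that is used, and annotated starts can lie some bases from those used in these cells.

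The only test that 4 arrays allow is an additive limma fit, with cell state and source as terms and 1 residual degree of freedom, adjusted by the Benjamini-Hochberg method over 7112 genes. For state, 13 of the 63 ribosomal protein genes fell in neurons at an adjusted p under 0.05, against 17.4% of all genes, a share near the background. None of the 63 rose (0), against 19.9% of all genes. The 13 were Rpl27, Rplp0, Rps15, Rpl18, Rps10, Rpl6, Rpsa, Rpl4, Rps25, Rpl38, Rps3, Rpl35a and Rps13. In limma Rpl27 had a state effect of -1.50 log2 units (SE 0.44, adjusted p = 0.0128), and Rps13, the last to pass, had -1.17 (SE 0.44, adjusted p = 0.0459). At an unadjusted p under 0.05 limma gave 27 of the 63, against 45.4% of all genes, a share no larger than the background. The number of ribosomal protein genes that limma called lower for state was 47 with each array scaled to its median, against 29.7% of all genes. It was 0 with quantile normalization, with scaling to the spike-in controls and without scaling, where 8.83%, 7.80% and 8.10% of all genes were called lower. As state coincides with slide, a state effect in this fit is equally an effect of slide. The only residual of the fit is the difference between the 2 state differences of a gene, moderated over all genes. Its SEs and p-values therefore do not measure the spread between cultures.

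The second question was how cells of the olfactory bulb differed from cells of the hippocampus within a state. In neurons the median difference of the 63 genes, OB minus HPC, was -0.31 log2 units (SD 0.14 over genes), a level 1.24-fold lower in OB neurons, and all 63 were lower in OB neurons, as were 50.7% of 6999 genes compared. The median over all genes was -0.01. In stem cells the median was -0.71 (SD 0.17), a level 1.63-fold lower in OB stem cells, and all 63 were lower in OB stem cells, as were 75.3% of 6028 genes. The median over all genes was -0.43 there, and relative to it the ribosomal protein genes stood at -0.28, with 57 of the 63 below it. The 175 other genes with a mean level of 6 or more had a median of -0.64 in stem cells, with 95.4% lower in OB stem cells. That is close to the ribosomal protein genes. In neurons these 175 genes had a median of -0.14, with 71.4% lower in OB neurons. The direction in stem cells turned with the scaling: relative to the spike-in controls 59 of the 63 genes were higher in OB stem cells, and without scaling between arrays 36 were higher and 27 lower. In neurons the direction was kept by all 63 genes under each constant scaling, with 58 lower and 3 higher under quantile normalization. No ribosomal protein gene differed by 2-fold or more between sources, 0 of 63 in neurons, where 8.0% of all genes were lower and 7.64% higher in OB neurons, and 0 of 63 in stem cells, where 6.92% were lower and 4.16% higher in OB stem cells.

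Rplp0 had the largest difference between sources, -0.75 in neurons and -0.99 in stem cells, OB minus HPC. Rpsa followed in neurons, with -0.65, and Rps15, Rpl6 and Rps10 had -0.56, -0.54 and -0.52 there. At the other end Rps29, a zinc-binding protein of the small subunit head, had levels of 7.14 in OB neurons and 7.15 in HPC neurons, and 7.39 in OB stem cells and 8.05 in HPC stem cells. Under this scaling its 2 neuron levels did not differ beyond the spot noise, while its difference in stem cells was -0.67. Rpl39 had -0.09 in neurons and -0.40 in stem cells, and Rpl35 -0.10 and -0.86. In stem cells Rps14, whose loss causes the anaemia of a human deletion syndrome, had a difference of -0.99, and Rpl18 had -0.98. Under this scaling Rpl30 had the smallest difference in the stem cells, with levels of 6.98 in OB stem cells and 7.10 in HPC stem cells, a difference of -0.11 that became 0.63 without scaling. In limma 0 of the 63 genes passed for source, against 0.211% of all genes lower and 0.0281% higher, the smallest adjusted p of the 63 was 0.690 and 0 had an unadjusted p under 0.05, against 8.03% of all genes.

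The difference between neurons and stem cells was smaller in olfactory bulb cells for 61 of the 63 genes and larger for Rpl38 and Rpl30. The difference of the 2 differences, olfactory bulb minus hippocampus, was thus above 0 for 61 of 63, as for 71.1% of all 5495 genes compared. Of the 175 other genes with a mean level of 6 or more it was above 0 for 158, with a median of 0.42. Its median was 0.35 log2 units over the 63 genes and 0.34 over all genes, so that relative to all genes it was 0.01. Scaling to the spike-in controls turned the median of the 63 genes to -1.11, no scaling to -0.54 and quantile normalization to -0.18. Among the 63 the difference of the 2 differences was largest for Rpl35, at 0.76. The levels of Rpl35 were 8.16 in OB neurons, 8.26 in HPC neurons, 8.36 in OB stem cells and 9.22 in HPC stem cells. Rps14 followed at 0.73, Rps29 at 0.66 and Rps2 at 0.66. Rpl30 was lowest, at -0.09, with levels of 6.12 in OB neurons, 6.32 in HPC neurons, 6.98 in OB stem cells and 7.10 in HPC stem cells.

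**Figure D3:**
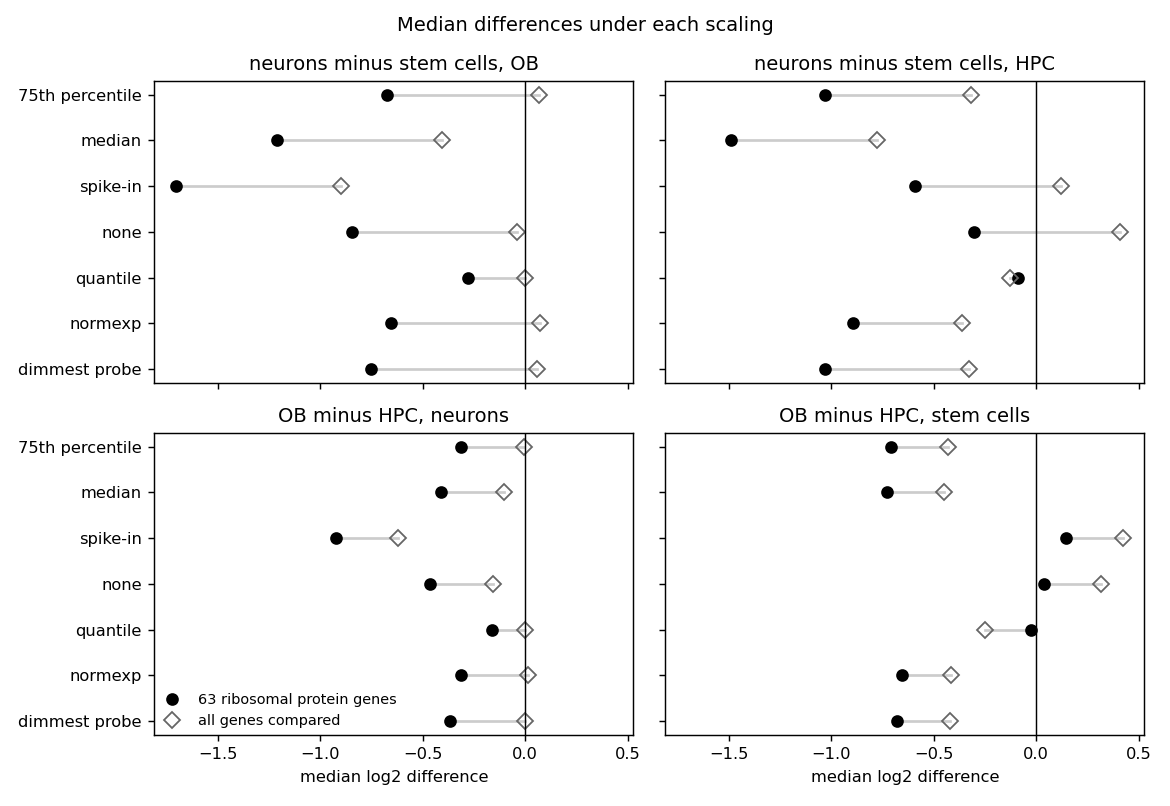
Median log2 difference of the 63 ribosomal protein genes (filled circles) and of all genes compared (open diamonds) in the 4 comparisons under 7 ways of processing. The circles lie below the diamonds by 0.71 to 0.81 for neurons minus stem cells and by 0.28 to 0.30 for OB minus HPC under each scaling by a constant; under quantile normalization they lie above the diamonds in hippocampal cells and in stem cells, and under spike-in scaling and no scaling the stem cell circle lies above 0.

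Of the 63 genes, 43 had a single probe and 20 had 2 or more, which allowed the same gene to be read by different probes. In olfactory bulb cells the dimmest probe was lower in neurons by more than the brightest probe in 19 of the 20 genes, and in hippocampal cells in 15 of 20. The median difference, neurons minus stem cells, was -1.02 by the dimmest and -0.72 by the brightest probe in olfactory bulb cells, and -1.11 and -1.07 in hippocampal cells. The examples that follow were chosen after their values were seen. Rps2, with 4 probes, had -0.58 by its dimmest and -0.19 by its brightest probe in olfactory bulb cells, Rpl5 had -0.90 and -0.49, Rps15a -0.99 and -0.57, and Rpl13 -1.31 and -0.89. Rpl10 was the exception in olfactory bulb cells, with -0.12 by its dimmest and -0.33 by its brightest probe. Rpl15 was 1 of 5 exceptions in hippocampal cells, with -0.42 and -1.15. The dimmest probe of Rpl15 had a mean intensity of only 2405, against 129788 for its brightest. The brightest probes had very high intensities: 47 of the 63 genes had a mean processed intensity of 100000 or more. The 16 genes below that had medians of -0.98 in olfactory bulb cells and -1.17 in hippocampal cells. Across the 63 genes mean level and difference had a Pearson correlation of 0.475 in olfactory bulb cells and 0.345 in hippocampal cells. Genes of higher level thus tended to have smaller differences. The part of probe brightness in the size of these differences was not tested. Ribosomal protein genes also have many processed pseudogenes and some near-identical copies, and a probe may bind their RNA.

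**Figure D4:**
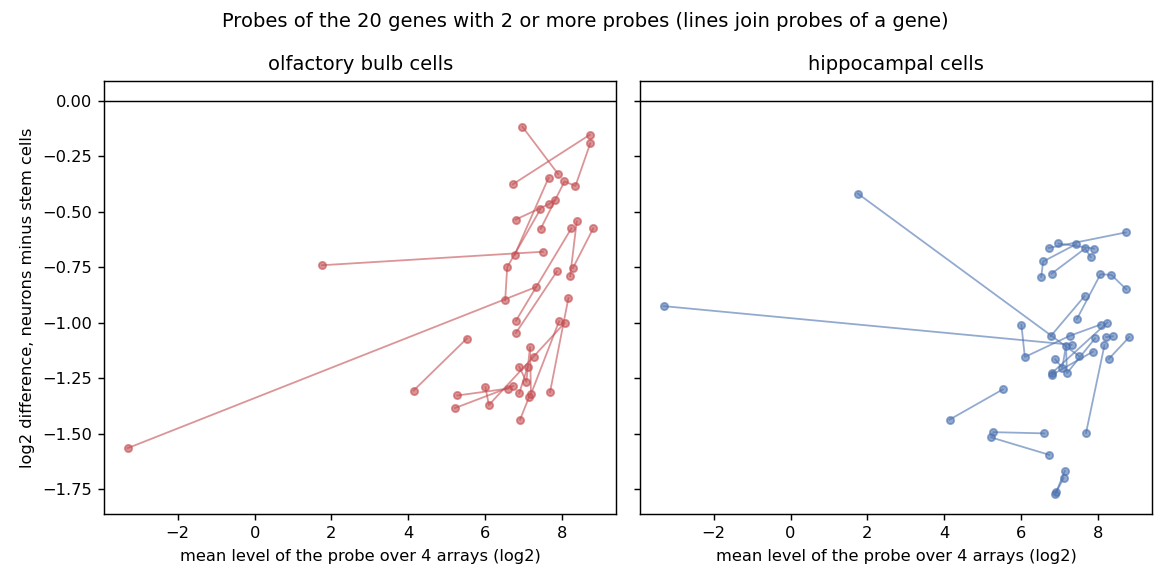
Log2 difference, neurons minus stem cells, of each probe of the 20 ribosomal protein genes with 2 or more probes, against the mean level of the probe over the 4 arrays in log2 units; lines join the probes of a gene, and red is olfactory bulb and blue hippocampal cells. In olfactory bulb cells the lines run downward to the dimmer probe in 19 of 20 genes, and in hippocampal cells in 15 of 20.

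A further 2 genes make or bind ribosomal proteins without carrying the names. Fau, a fusion whose product yields a small subunit protein, had differences of -0.50 in olfactory bulb cells and -0.99 in hippocampal cells, neurons minus stem cells. Rack1, a scaffold on the small subunit, had levels of 5.47 in OB neurons, 6.07 in HPC neurons, 6.94 in OB stem cells and 7.83 in HPC stem cells. Its differences of -1.47 and -1.76 were larger than those of any of the 63 genes by their brightest probes. Some dimmer probes had larger ones, as of Rpl18 in hippocampal cells (-1.77). In olfactory bulb cells the dimmer probe of Rpl28 did (-1.56), but its mean intensity was only 76.8, against 115073 for the brightest probe of that gene. The 4 copies that the naming rule leaves out were also lower in neurons: Rpl37l1 with -0.86 in olfactory bulb cells and -1.01 in hippocampal cells, Rplp1l1 with -0.69 and -1.23, Rpl36al1, the only gene of a list of tissue-restricted or duplicated copies with a named probe, with -0.34 and -0.63, and Rpl37al2 with -0.24 and -0.61.

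Other genes of ribosome production and translation were set beside the family. Their lists were chosen with earlier results of these data known, so their direction is not independent evidence. For comparison, 20% of all genes were lower by 2-fold or more in OB neurons, 26.9% in HPC neurons and 16.8% in both. Higher by that much were 26.8% in OB neurons and 21.8% in HPC neurons. The mitochondrial ribosomal proteins, which serve the separate ribosome of that organelle, had medians of -0.85 in olfactory bulb cells and -1.26 in hippocampal cells over 24 genes, neurons minus stem cells, against 0.07 and -0.32 over all genes. Of the 24, 8 were lower by 2-fold or more in OB neurons and 17 in HPC neurons, and 0 were higher. The shares lower were 33.3% and 70.8%. Mrpl38 had -2.56 and -2.74. Among 42 genes of ribosome assembly, 36 were lower by 2-fold or more in OB neurons, 34 in HPC neurons and 32 in both. None (0) were higher, and the medians were -1.66 and -1.45. The shares lower were 85.7% in OB neurons and 81.0% in HPC neurons, far above those of all genes. Gar1, of the particle that converts uridines of ribosomal RNA to pseudouridine, had -3.37 in olfactory bulb cells and -3.18 in hippocampal cells. Fbl, the methylase of ribosomal RNA, had -2.39 and -2.55, Ncl, the nucleolar protein nucleolin, -1.64 and -0.58, and Npm1, which helps to export the subunits, -0.87 and -0.21. The assembly genes thus had larger median differences than the 63 ribosomal protein genes in both sources, and their SDs, 0.67 and 0.69, were larger as well.

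Of 16 genes of RNA polymerases I and III and the Myc family, 8 were lower by 2-fold or more in OB neurons and 9 in HPC neurons. In both, 7 were lower, and 0 were higher, with medians of -0.94 and -1.33. The shares lower were 50% and 56.25%, against 20% and 26.9% of all genes. Polr1b, the second largest subunit of RNA polymerase I, had -3.09 in olfactory bulb cells and -2.93 in hippocampal cells. Myc had levels of 1.11 in OB neurons, 2.69 in HPC neurons, 4.87 in OB stem cells and 5.22 in HPC stem cells, which are differences of -3.77 and -2.53. Initiation factors had medians of -1.14 and -1.28 over 19 genes. Of these, 10 were lower by 2-fold or more in OB neurons (52.6%) and 11 in HPC neurons (57.9%), and 0 were higher. Eif3d had -2.02 and -2.07, and Eif4e, which binds the cap, -1.64 and -1.55. Elongation factors and other genes of TOP messages had medians of -1.0 over 17 genes in olfactory bulb cells and -1.14 over 16 in hippocampal cells. Lower by 2-fold or more were 8 (47.1%) and 9 (56.25%), and 0 were higher. Btf3, of the complex that meets the new protein at the tunnel exit, had -2.0 and -1.86, and Eef1a1, which brings transfer RNA to the ribosome, -0.73 and -1.15. Tpt1 and Vim, whose messages also carry a TOP motif, had 0.36 and 0.07 in olfactory bulb cells and -0.05 and -0.18 in hippocampal cells.

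The genes of mTORC1 and the S6 kinases stood apart from these in their values. Their medians were -0.12 in olfactory bulb cells and -0.30 in hippocampal cells over 11 genes, close to those of all genes. In each source 1 of 11 was lower by 2-fold or more, and 1 was higher in hippocampal cells. The share lower, 9.09% in each source, was below the 20% and 26.9% of all genes. The share higher in hippocampal cells, 9.09%, was below the 21.8% of all genes. Eif4ebp1, the inhibitor of cap binding, had -0.78 and -1.83, Rps6ka1, a ribosomal S6 kinase, -1.32 and -0.95, and Ddit4, an inhibitor of mTORC1, 0.37 and 1.25. The 16 cell cycle genes had medians of -2.59 and -2.65. Of these, 12 were lower by 2-fold or more in OB neurons (75%) and 13 in HPC neurons (81.25%). Higher by that much were 2 (12.5%) and 1 (6.25%), against 26.8% and 21.8% of all genes. Ccnd2, a G1 cyclin, was higher by 4.90 in OB neurons and 4.58 in HPC neurons, and Tyms, which makes thymidylate, had 1.03 and 0.081. Most cell cycle genes were thus lower in neurons, as the ribosomal protein genes were, and their part was not tested.

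**Figure D5:**
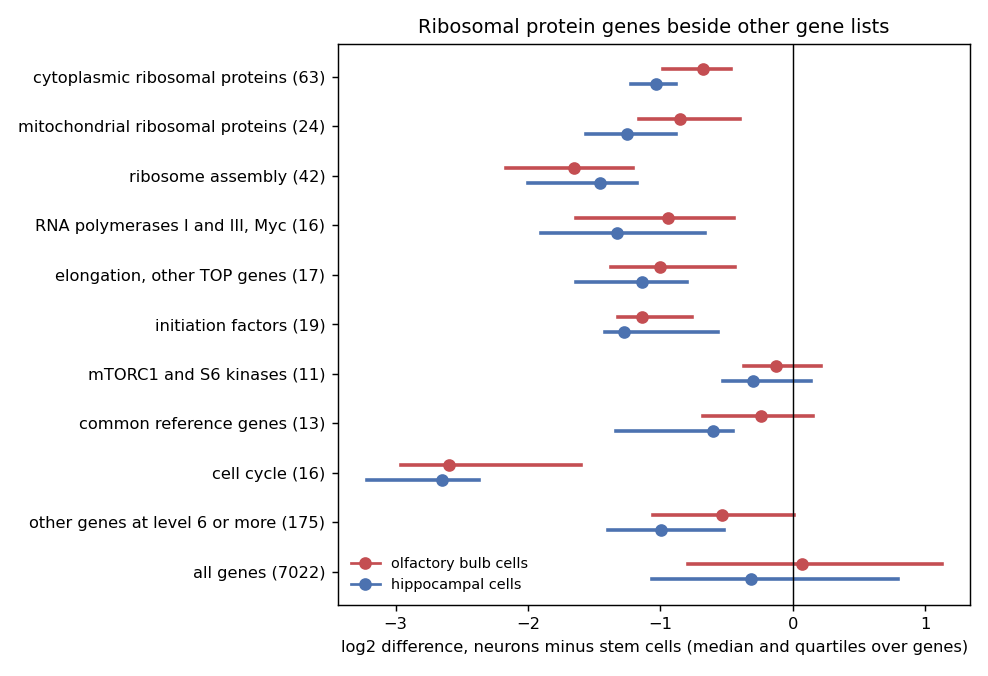
Median (circle) and quartiles (line) over genes of the log2 difference, neurons minus stem cells, for the 63 ribosomal protein genes and for other lists, in olfactory bulb cells (red) and hippocampal cells (blue), with the number of genes in brackets. The ribosomal protein genes stand at -0.68 and -1.03 with the shortest lines, the assembly genes at -1.66 and -1.45 and the cell cycle genes at -2.59 and -2.65, against 0.07 and -0.32 for all genes, and under quantile normalization the first of these become -0.28 and -0.09.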

How the data were processed

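The deposited files hold the processed intensity of each spot. Agilent Feature Extraction 10.5.1.1 had read the arrays, per the submitters' processing notes, and had subtracted background within each array, per the file headers. The values of the authors' series table were identical to these (largest difference 0). No normalization between arrays is given in the sources used here. Here log2 of the deposited intensity was taken, minus the log2 of the array's 75th percentile. An outlier spot took 254 of the 41012 non-control probes out. Accessions of 10783 of the 40758 probes kept matched 1 symbol of the RefSeq annotation of GRCr8, used for names, 0 matched several and 29975 matched none. The probe design is of another build, per the file headers, so GRCr8 coordinates are given for promoters only. The brightest probe over the 4 arrays stood for a gene. A gene entered a comparison when well above background on at least 1 of its 2 arrays; a side below background was set to the lowest signal well above background on that array or its own, if higher. A difference of 1 log2 unit (2-fold) counted as called. limma 3.58.1 in R 4.3.3 fitted source and state over the 4 arrays, and the fit was checked on simulated data. Python 3.11.15 computed the rest. With 1 array per group, no single difference has a replicate check, and the number of arrays limits the precision. Spots of 141 probes printed 10 times had a median SD in log2 of 0.064 in OB neurons, 0.055 in HPC neurons, 0.080 in OB stem cells and 0.086 in HPC stem cells.

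The members, the lists (copies of ribosomal protein genes, fused or associated genes, mitochondrial ribosomal proteins, assembly, polymerases and Myc, elongation and TOP genes, initiation factors, mTORC1 and S6 kinases, reference genes, cell cycle and cell type markers) and the rule for named genes were chosen with earlier results of these data known. That rule took members at 2-fold or more in both sources or states, the 4 highest and 4 lowest of each comparison, 4 per direction by the difference of changes, 11 members of known function or use, and up to 4 genes per direction of each list; others are named as chosen later, and a few items are not reported here. The alternatives were scaling to the median, to the spike-in controls or to the median of all genes, quantile normalization, normexp with an offset of 50 on median spot signals, other filters on dim probes, the mean over probes, the authors' table and, added after seeing the data, the dimmest probe, no scaling, and leaving out members with an intensity of 100000 or more.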

Additional observations from a re-analysis of the deposited data

How the results depend on the processing

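Differences between arrays depended on how the arrays were scaled, since 1 array stood for each group. For neurons minus stem cells in olfactory bulb cells the median over the ribosomal protein genes, -0.68, became -1.21 with scaling to the median, -0.28 with quantile normalization, -1.70 with spike-in scaling, -0.85 without scaling and -0.98 for the 16 genes of intensity under 100000, and the 15 genes lower by 2-fold became 47, 2, 63, 25 and 8. In hippocampal cells the median, -1.03, became -1.49, -0.090, -0.59, -0.30 and -1.17 under the same settings, -0.71 relative to all genes and -0.90 with normexp, and the 34 genes became 61, 0, 7, 0 and 10, and 10 relative to all genes. For OB minus HPC in neurons, -0.31 became -0.41 with scaling to the median, -0.16 with quantile normalization, -0.92 with spike-in scaling, -0.46 without scaling and -0.46 for the 16 dimmer genes, and 0 genes lower by 2-fold became 20 with spike-in scaling and 1 with the dimmest probe. In stem cells -0.71 became -0.026 with quantile normalization, 0.14 with spike-in scaling, -0.28 relative to all genes and 0.037 without scaling, and 0 genes became 2 with scaling to the median and 2 with normexp. The difference of the state differences, 0.35, became -0.18 with quantile normalization, -1.11 with spike-in scaling, 0.0092 relative to all genes and -0.54 without scaling. The 13 genes that limma called for state became 47 with scaling to the median and 0 with quantile normalization, with spike-in scaling and without scaling. For Rpl29 in hippocampal cells, neurons minus stem cells, quantile normalization gave 0.027 in place of -1.01. It was the only 2-fold difference of a single named ribosomal protein gene whose direction turned. Of the other values of single named genes under the alternatives, 655 moved by at least the spot noise and 876 by less. The cause of these shifts was not tested, apart from the constants, which move every gene alike, and the smaller number of genes under 100000. Another 128 medians and counts under the alternatives moved by less than the spot noise, or for counts stayed within 1.5 times.

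No paired analysis was possible because each group has 1 array, and for the same reason no replicate was left out. Slide as a block has no fit of its own, since it coincides with state.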

Other observations

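Of 13 genes in common use as constant references, 2 were lower by 2-fold or more in OB neurons and 6 in HPC neurons. In each, 1 was higher, and the medians were -0.24 and -0.60. The shares lower were 15.4% and 46.2%, against 20% and 26.9% of all genes. The share higher was 7.69% in each, against 26.8% and 21.8%. Actb, cytoskeletal actin, had 0.10 in olfactory bulb cells and -0.45 in hippocampal cells. Ppia, a prolyl isomerase, had -1.11 and -1.49, and B2m, of the class I antigen complex, 2.13 and 1.47. None of these values could be tested with 1 array per group.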
